A study of Mus musculus with 7 samples.

Results

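The genes described here are 10 genes of the ATF4 amino acid stress response, *Atf4*, *Ddit3*, *Trib3*, *Asns*, *Chac1*, *Psat1*, *Phgdh*, *Sesn2*, *Slc7a11* and *Mthfd2*, among 56748 genes counted in cultured mouse muscle stem cells (MuSCs). They were chosen by name, and every Ensembl record that carries one of these symbols was taken, which gave 11 records because *Ddit3* has 2. The study asked how loss of the NOTCH ligand JAG2, whose gene is mutated in a muscular dystrophy, alters MuSCs. RNA came from 3 WT samples and from 4 samples homozygous for Jag2sm, a spontaneous allele with a missense change that lowers the function of the ligand without deleting its gene. The labels give the genotype of these 4 samples as Jag2-/-. All samples were MuSCs of the hind limb muscle of adult mice, taken as CD31-, CD45- and Sca1-negative and Integrin α7-positive cells and kept in growth medium with serum and basic FGF. The labels name no stress treatment, and the batch numbers they give match the replicate numbers. The sources used here do not say whether the samples of a genotype came from separate mice or cultures, so every p-value below measures only the spread between these libraries, part of which may be technical.

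ATF4 is a basic leucine zipper transcription factor at the centre of the integrated stress response. Kinases that sense missing amino acids (GCN2), double-stranded RNA (PKR), protein folding stress in the endoplasmic reticulum (PERK) or heme loss and mitochondrial trouble (HRI) phosphorylate the translation factor eIF2α, which lowers protein synthesis in general while the *Atf4* mRNA is translated more. ATF4 then pairs with C/EBP family proteins at a composite element in its target genes and raises amino acid import, serine and asparagine synthesis, tRNA charging and, when stress lasts, genes of cell death. Because much of this control is at translation, the level of *Atf4* mRNA is not a readout of the protein. In muscle, phosphorylation of eIF2α is known for its part in stem cell quiescence.

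The composite C/EBP-ATF response element was searched for in the promoter windows of RefSeq (250 bases before to 50 after each start, build GRCm38.p6) as TGATGNAA, or TTNCATCA when read on the opposite strand. Of all 32851 windows, 3.97% hold it. All 10 genes had a window, and 4 of them, *Asns*, *Chac1*, *Slc7a11* and *Trib3*, hold at least 1 match. The variant TGACGNAA, found in 1.59% of windows, occurs in *Chac1*. The stretches of 30 bases with these matches are shown because this element is the kind through which ATF4 is known to act, read in the direction of transcription with the match in capitals.
Slc7a11: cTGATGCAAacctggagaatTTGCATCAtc
Asns: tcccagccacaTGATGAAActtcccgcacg
Chac1, farther match: TGACGCAAtctgactcgcccttgctgcatg
Chac1, nearer match: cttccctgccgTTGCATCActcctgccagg
Trib3: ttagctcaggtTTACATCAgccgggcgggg
By an exact match of the window to GRCm39, the *Slc7a11* stretch lies at chr3:50398100-50398129 on the minus strand, outside the annotated exons, and holds 2 matches, which begin 66 and 47 bases before the RefSeq start. The *Asns* stretch is at chr6:7693214-7693243, minus strand, with a match that begins 23 bases before the start, and annotated exons of *Asns* and of *1700012J15Rik*, on the opposite strand, cover it. The *Chac1* stretches are at chr2:119181473-119181502 and chr2:119181519-119181548, plus strand, with matches that begin 250 and 193 bases before the start, and lie inside an annotated exon of the gene. The *Trib3* stretch is at chr2:152185948-152185977, minus strand, with the match at base 15 from the RefSeq start, inside annotated exons of the gene. A match is a description of the letters only, and windows without one were not searched further.

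The 7 libraries held 187834 to 1937581 reads counted on genes, and WT replicate 1 was the shallowest, so that 3 counts there make 17.3 CPM (normalized counts, scaled to the same library total with edgeR's TMM factors) against 1.48 in the deepest library. In WT replicate 1, 45.1% of aligned reads lay on no gene, where the others had 20.8% to 25.7%, and it held the highest WT value of *Mthfd2*, *Trib3*, *Psat1* and *Slc7a11*, for which its part was not tested beyond leaving it out. Unaligned reads made up 2.44% to 3.24% of the WT libraries and 3.07% of Jag2sm replicate 3, but 50.8%, 46.7% and 45.9% of Jag2sm replicates 1, 2 and 4. *Jag2* itself was measured at 80.7, 114 and 116 CPM in WT and at 42.4, 78.8, 71.9 and 77.4 CPM in Jag2sm libraries, which did not overlap, with a log2 fold change of -0.64 and an edgeR quasi-likelihood adjusted p of 0.166. The allele alters the protein, so this mRNA checks the labels only weakly. Of the cell type markers, the 8 progenitor genes summed to 3149 to 5649 CPM in WT and 1985 to 2438 in Jag2sm libraries. Of these 8, 4 had a log2 fold change above 0 and 4 below, with a median of 0.12. Only *Des* had an edgeR adjusted p under 0.05 (log2 fold change -1.63, adjusted p = 0.024). It was at 4600, 1807 and 1875 CPM in WT and at 912, 836, 706 and 1103 CPM in Jag2sm libraries. The 9 genes of differentiating muscle summed to 20660 to 32010 CPM in WT and 861 to 5055 CPM in Jag2sm libraries. No endothelial, immune or glial marker list had a gene with enough counts to be tested, and *Kdr*, *Ptprc*, *Adgre1*, *Lyz2*, *Cd3e*, *Lum* and *Dpt* were at 0 in every library. In bulk RNA, fewer cells of a type and less RNA per cell cannot be told apart.

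Among the regulators, *Atf4* (chr15:80139372-80141745, plus strand, no exon shared with another gene) had 5369 counts in all. Its level was 375, 528 and 550.1 CPM in the WT libraries and 303, 861, 759 and 739 CPM in Jag2sm replicates 1 to 4. Jag2sm replicates 2, 3 and 4 lay above every WT library and replicate 1 lay below every WT library, so the genotypes overlapped. The means were 484 ± 95.5 (SD, n = 3) and 665 ± 248 CPM (SD, n = 4). The fitted log2 fold change was 0.45 with a standard error of 0.34, and it did not pass the test (edgeR quasi-likelihood p of 0.519 after Benjamini-Hochberg adjustment over 9489 genes, two-sided exact permutation p = 0.4). Without Jag2sm replicate 1 the log2 fold change was 0.69 with an adjusted p of 0.172.

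*Trib3* (chr2:152179337-152191958, minus strand) encodes a pseudokinase that is induced by ATF4 and holds it back in a feedback loop. It was measured at 46.1, 15.5 and 12.3 CPM in WT and at 7.07, 40.1, 68.0 and 25.3 CPM in Jag2sm libraries. The highest WT value, of replicate 1, rests on 8 counts, and the lowest Jag2sm value, of replicate 1, on 5. The genotypes overlapped, and WT replicate 1 lay above 3 of the 4 Jag2sm libraries. The log2 fold change of 1.04 with a standard error of 0.64 did not pass the test (edgeR adjusted p = 0.409).

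*Ddit3* encodes CHOP, a partner of ATF4 that is known for driving death under lasting stress. Its main record (chr10:127124268-127132163, plus strand) had 3, 4 and 0 counts in the WT libraries and 2, 1, 6 and 4 in the Jag2sm libraries, 20 in all, and was not tested. Over all libraries of a genotype, the counts were 7 and 13, a ratio of Jag2sm to WT of 0.953 with an exact binomial 95% interval of 0.353 to 2.82, which covers counting error only. The second record (chr10:127126698-127129622) lies inside the first on the same strand and had 0 counts in every library. *Mars1*, *Mbd6* and *Gm4189* overlap these exons on the opposite strand. Reads that fit more than 1 gene are set aside as ambiguous, 8.05% to 9.74% of aligned reads in these libraries. The share of them that came from *Ddit3* is not known, so its low count does not give the level of its mRNA.

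Of the enzymes, asparagine synthetase (*Asns*, chr6:7671667-7728461, minus strand) had the smallest coefficient of variation in WT MuSCs among the 10 genes, 5.80%, at 265, 256 and 286 CPM. The Jag2sm libraries held 87.7, 251, 268 and 213 CPM, so that replicate 1 stood far below every other library of either genotype. The log2 fold change was -0.38 with a standard error of 0.33 (edgeR adjusted p = 0.574), and the exons of *1700012J15Rik* overlap those of *Asns* on the other strand.

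The serine pathway begins with *Phgdh* and continues with *Psat1*, which together make phosphoserine from a glycolytic intermediate. *Phgdh* (chr3:98220484-98255047, minus strand) was at 92.2, 183 and 155 CPM in WT and at 134, 162, 221 and 148 CPM in Jag2sm libraries. *Psat1* (chr19:15882039-15924701, minus strand) was at 392, 297 and 359 CPM in WT and at 122, 348, 416 and 294 CPM in Jag2sm libraries. Apart from the low *Psat1* value of Jag2sm replicate 1 and the high *Phgdh* value of Jag2sm replicate 3, the libraries of both genotypes lay in nearly the same range. Log2 fold changes were 0.16 with a standard error of 0.26 for *Phgdh* and -0.23 with a standard error of 0.35 for *Psat1* (edgeR adjusted p = 0.798 and 0.784).

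*Mthfd2* (chr6:83282673-83302890, minus strand), the mitochondrial enzyme that passes one-carbon units from serine toward purine synthesis, was the gene lowest in Jag2sm relative to WT. It was measured at 271, 169 and 181 CPM in WT and at 53.7, 132, 144 and 107 CPM in Jag2sm libraries. All 4 Jag2sm libraries lay below all 3 WT libraries. The log2 fold change was -0.86 with a standard error of 0.32, which had an unadjusted p of 0.0207 and an edgeR adjusted p of 0.154 (exact permutation p = 0.0571, where 0.0286 is the smallest that 7 libraries allow).

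*Sesn2* (chr4:132219335-132237815, minus strand) encodes Sestrin2, which senses leucine and restrains mTORC1. It was measured at 17.3, 26.5 and 19.0 CPM in WT and at 26.9, 52.5, 74.4 and 35.9 CPM in Jag2sm libraries. All 4 lay above all 3 WT libraries, although replicate 1 cleared WT replicate 2 by less than 1 CPM. The log2 fold change was 1.13 with a standard error of 0.37, an unadjusted p of 0.0120 and an edgeR adjusted p of 0.110 (exact permutation p = 0.0571).

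*Slc7a11* (chr3:49846975-50398070, minus strand) encodes xCT, the cystine importer that feeds glutathione synthesis and is also a target of NRF2. Its WT values of 11.5, 9.05 and 6.64 CPM came from 2, 14 and 7 counts, and the Jag2sm libraries held 11.3, 38.7, 12.8 and 32.6 CPM. Replicates 2 and 4 were high, while replicates 1 and 3 stood near the top of the WT range, and the genotypes overlapped by replicate 1. The log2 fold change of 1.53 with a standard error of 0.53 was the largest among the 9 tested genes and did not pass (unadjusted p = 0.0151, edgeR adjusted p = 0.126). Among the alternatives run, it passed when genes with low counts were kept in the fit, as did *Sesn2* and *Trib3* (4.95% of all genes were then called), and when Jag2sm replicate 3 was left out (6.68%).

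*Chac1* (chr2:119180757-119184866, plus strand), which degrades glutathione and so acts against the product of xCT's supply, was measured at 23.1, 40.7 and 40.8 CPM in WT and at 15.6, 53.2, 66.0 and 36.7 CPM in Jag2sm libraries. Replicates 2 and 3 exceeded every WT library and replicate 1 fell below them all. Its log2 fold change was 0.23 with a standard error of 0.40 (edgeR adjusted p = 0.811).

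**Figure D1:**
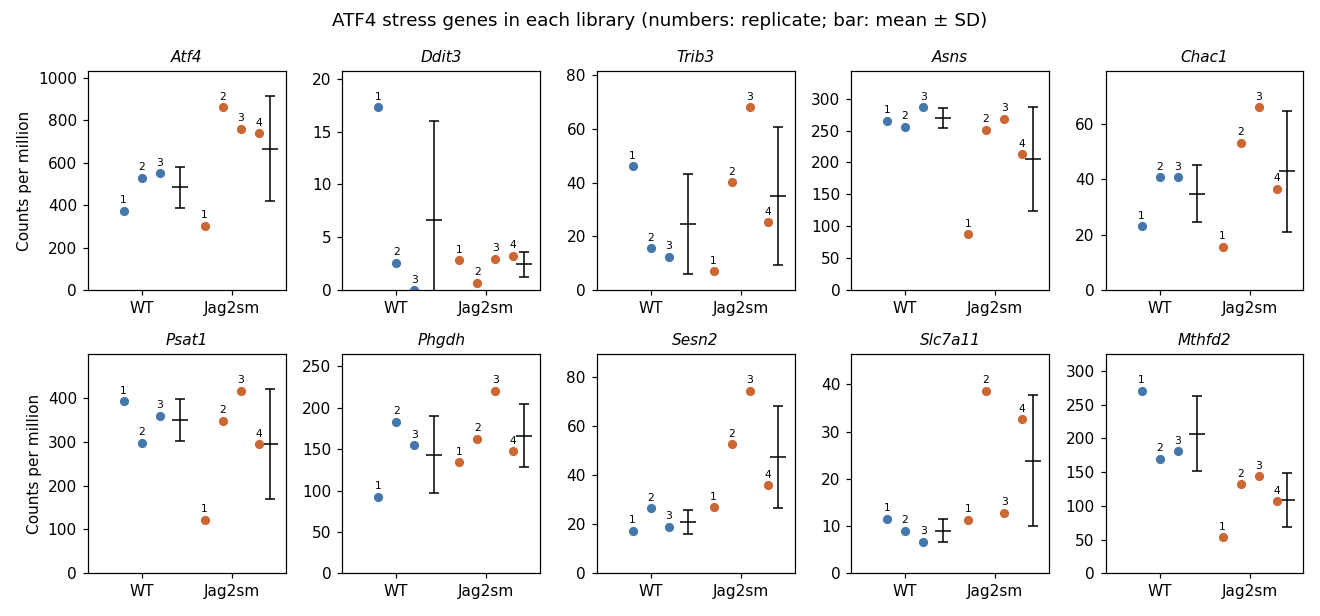
Level of each of the 10 genes in CPM (vertical axes, from 0) in every library of WT (blue) and Jag2sm (orange) MuSCs, with replicate numbers beside the points and the mean ± SD as a bar to the right of each group (n = 3 and n = 4). In the 9 tested genes, all but *Ddit3*, Jag2sm replicate 1 is the lowest orange point, and only *Sesn2* and *Mthfd2* show no overlap of the genotypes.

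Across the whole list, 0 of 9 tested genes were called between the genotypes at an edgeR adjusted p under 0.05, where 6.26% of all tested genes were called, 1.42% higher and 4.84% lower in Jag2sm. DESeq2 also called 0. An unadjusted p under 0.05 was reached by 3 of 9 genes, *Sesn2*, *Slc7a11* and *Mthfd2*, beside 19.7% of all tested genes. The genotypes did not overlap in 2 of 9 genes, *Sesn2* above and *Mthfd2* below, beside 22.5% of all tested genes (10.3% higher and 12.2% lower). The median log2 fold change of the 9 genes was 0.23, from -0.86 to 1.53, beside 0.05 over all tested genes. Each batch number of the labels held 1 library of each genotype, except that Jag2sm replicate 4 stood alone. Within them, *Sesn2* was higher and *Mthfd2* lower in Jag2sm in 3 of 3, which follows from the lack of overlap. *Asns* was lower in 3 of 3, but by little in replicates 2 (256 against 251 CPM) and 3 (286 against 268 CPM). *Atf4*, *Slc7a11*, *Trib3*, *Chac1*, *Phgdh* and *Psat1* were higher in 2 of 3, *Psat1* despite a log2 fold change below 0. The share of all tested genes with such patterns was not counted, and the numbers were not taken as pairs. These counts are therefore a description only. Markers of differentiating muscle moved with the genotype, with 8 of 8 tested genes called lower in Jag2sm, and their part in the values of the stress genes was not tested. A difference that missed the threshold is not shown to be absent: the standard errors ran from 0.26 for *Phgdh* to 0.64 for *Trib3* on the log2 scale.

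**Figure D2:**
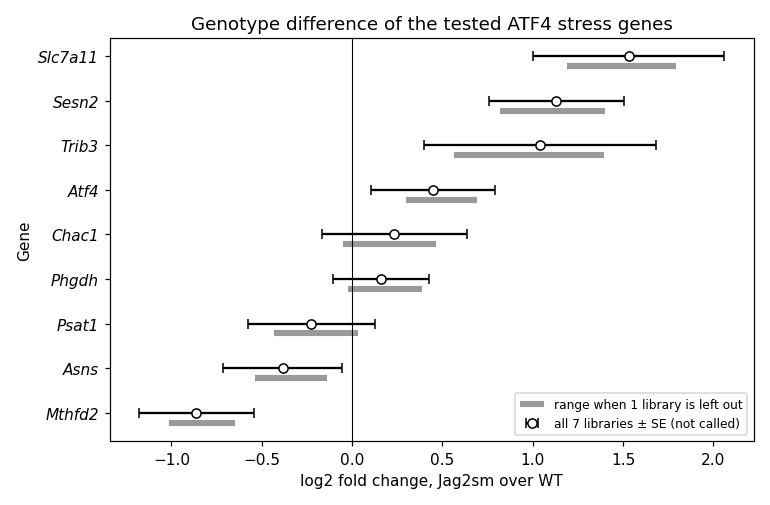
Fitted log2 fold change of Jag2sm over WT (horizontal axis) for the 9 tested genes, as open points with their standard error, and below each the range of the estimate when any 1 of the 7 libraries is left out (grey). *Slc7a11*, *Sesn2*, *Trib3* and *Atf4* stay above 0 and *Mthfd2* and *Asns* below 0 in every such fit, while *Chac1*, *Phgdh* and *Psat1* cross 0.

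The Jag2sm libraries also differed from each other in these genes, a pattern that was noticed in the values and counted afterwards. Jag2sm replicate 1 was the lowest of the 4 Jag2sm libraries in 9 of 9 tested genes, where it was the lowest in 30.5% of all tested genes. It was also the lowest in all 9 when libraries were scaled by size alone or by the size factors of DESeq2. In 8 of 9 genes, all but *Phgdh*, it held at most 0.5 of the mean of replicates 2, 3 and 4, beside 6.28% of all tested genes. It lay below every WT library in 6 of 9 genes, beside 28.9%, namely *Atf4*, *Trib3*, *Asns*, *Chac1*, *Psat1* and *Mthfd2*. The ratio of replicate 1 to the mean of the other Jag2sm libraries had a median of 0.385, from 0.159 for *Trib3* to 0.759 for *Phgdh*, beside a median of 0.990 over all tested genes. No test was made of this difference, since replicate 1 is a single library.

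Counting error was smaller than these gaps for most of the genes. For *Atf4*, replicate 2 held 2.85 times the CPM of replicate 1, with an exact binomial 95% interval of 2.46 to 3.31. The ratio of the highest to the lowest Jag2sm library was 9.62 for *Trib3* (interval 4.02 to 30.1), 4.25 for *Chac1* (2.30 to 8.71), 3.42 for *Psat1* (2.74 to 4.33) and 3.06 for *Asns* (2.35 to 4.04). It was smallest for *Phgdh*, at 1.64 (1.31 to 2.07). The libraries of each ratio were picked as the extremes from these same values. Under counting error alone, such intervals miss a ratio of 1 more often than 95% intervals of libraries fixed beforehand. The coefficient of variation over the 4 Jag2sm libraries was 37.2% for *Atf4* and 73.4% for *Trib3*, where counting alone would give 3.36% and 13.7%. Jag2sm replicate 3 was the highest Jag2sm library in 7 of 9 genes, beside 25.6% of all tested genes, and replicate 2 in the other two, *Atf4* and *Slc7a11*.

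Depth and *Rgs5* also set Jag2sm replicate 1 apart. It had the fewest counted reads of the Jag2sm libraries, 671660. Its share of reads that did not align was the largest, 50.8%, but near the 46.7% and 45.9% of replicates 2 and 4. *Rgs5*, a marker of mural cells, was at 645 CPM there, against 25.3 to 40.4 CPM in the other Jag2sm libraries and 11.5 to 14.2 CPM in WT, and it made up nearly all of the 646 CPM of the 5 mural markers in that library. Myogenic progenitor markers summed to 1985 CPM in replicate 1 and to 2030, 1986 and 2438 CPM in replicates 2, 3 and 4. Markers of differentiating muscle summed to 4494, 2416, 861 and 5055 CPM in replicates 1 to 4. Replicate 3, the highest Jag2sm library in most of the stress genes, was the lowest in these markers and the deepest library (1937581 counted reads). The part of these measures in the low values of the stress genes was not tested. Without replicate 1, 0 of 9 genes were called by edgeR (4.57% of all genes tested), 5 had an unadjusted p under 0.05 (18.3%), and the genotypes did not overlap in 4 of 9 genes, beside 28.7% of all tested genes (14.4% higher and 14.3% lower). *Atf4*, *Sesn2* and *Slc7a11* then lay higher and *Mthfd2* lower in every Jag2sm library, and the median log2 fold change was 0.47, beside 0.04 over all genes tested. Replicate 1 was left out because it was seen to be low in these genes, so these values are not independent of that choice.

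Other genes of amino acid supply were read in the same way, from 9 lists of 142 genes outside the 10, of which 127 were tested. Replicate 1 was the lowest Jag2sm library in 9 of 11 amino acid transporters, with a median ratio to the other Jag2sm libraries of 0.648. It was the lowest in 15 of 19 cytosolic aminoacyl-tRNA synthetases, which charge tRNAs with amino acids (median ratio 0.727), and in 8 of 12 further enzymes of amino acid synthesis (0.758). Replicate 1 was the lowest in 4 of 13 serine, glycine and one-carbon enzymes (median ratio 1.17). For targets of ATF6 and IRE1, the other arms of the endoplasmic reticulum stress response, this held in 4 of 21 (1.14). In NRF2 and glutathione genes apart from *Slc7a11*, it was the lowest in 1 of 12 (1.03). It was the lowest in 6 of 14 genes of the list of eIF2α kinases, phosphatases, eIF2 subunits and related factors (0.845). It was also the lowest in 3 of 8 other basic leucine zipper partners and regulators (0.841) and 6 of 17 further stress outputs of ATF4 (1.08). Beside 30.5% of all tested genes, the transporters, tRNA synthetases and synthesis enzymes had the largest shares. The eIF2α list, the leucine zipper partners and the further stress outputs of ATF4 also lay above it by less. The serine, glycine and one-carbon list lay near it.

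Within those lists, the genes named next were picked after their values were seen. *Nupr1*, a stress-induced chromatin protein, was at 24.0 CPM in Jag2sm replicate 1 and at 146, 103 and 110.1 CPM in replicates 2, 3 and 4. *Slc7a3*, a cationic amino acid importer, was at 11.3, 84.3, 68.0 and 50.5 CPM in the same order, and *Cth*, which makes cysteine, at 12.7, 76.7, 65.0 and 34.2 CPM. *Pycr1*, of proline synthesis, was at 4.24, 22.1, 34.98 and 17.9 CPM. In the serine list, *Psph* and *Shmt2*, which follow *Psat1* in the pathway, were at 60.8 and 82.0 CPM in replicate 1 and at 114 to 171 and 130.4 to 175 CPM in the others, whereas *Tyms*, of thymidylate synthesis, was highest in replicate 1, at 105 CPM. *Hspa5*, the main chaperone of the endoplasmic reticulum, was at 741 CPM in replicate 1 and at 769, 484 and 702 CPM in the other Jag2sm libraries.

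**Figure D3:**
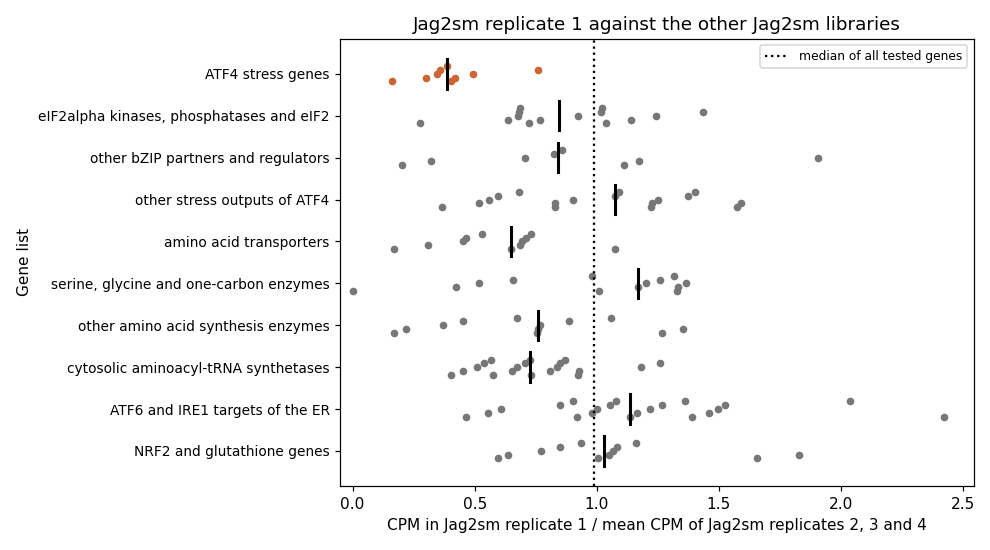
Each point is a tested gene, and the horizontal axis is its CPM in Jag2sm replicate 1 divided by the mean CPM of Jag2sm replicates 2, 3 and 4, by gene list, with list medians as black bars and the median of all tested genes, 0.990, as a dotted line. The ATF4 stress genes (orange) lie at 0.159 to 0.759, and the tRNA synthetases, transporters and synthesis enzymes have medians between 0.648 and 0.758.

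Between the genotypes, 7 of the 127 tested genes of these lists were called, 5.51% beside 6.26% of all tested genes. There were 3 higher and 4 lower in Jag2sm, of which 5 were in the list of further stress outputs of ATF4. *Cebpb*, a C/EBP protein that can pair with ATF4, rose from 5.76, 15.5 and 13.3 CPM in WT to 42.4, 38.7, 29.1 and 40.8 CPM in Jag2sm libraries (log2 fold change 1.46, standard error 0.30, edgeR adjusted p = 0.0162). *Niban1*, induced under stress, rose from 11.5, 5.82 and 4.74 CPM to 14.1, 24.9, 31.5 and 19.6 CPM (1.96, standard error 0.42, edgeR adjusted p = 0.0200). *Srxn1*, the sulfiredoxin of the NRF2 list, rose from 40.4, 41.4 and 31.3 CPM to 110.3, 63.6, 61.1 and 75.0 CPM (1.03, standard error 0.27, edgeR adjusted p = 0.0496). In each of these genes all Jag2sm libraries lay above all WT libraries, and replicate 1 was among the higher Jag2sm libraries for *Cebpb* and *Srxn1*. The values of *Cebpb* and *Niban1* in WT replicate 1 rest on fewer than 3 counts, which make 17.3 CPM there. Over all WT libraries these 2 genes had 39 and 16 counts.

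The 4 genes that fell were *Fgf21*, a secreted stress hormone, and *Gadd45a*, *Pmaip1* and *Cdkn1a*, which act in growth arrest and cell death and are also targets of p53. *Fgf21* was at 121, 222 and 211 CPM in WT and at 12.7, 12.4, 3.45 and 30.2 CPM in Jag2sm libraries, a log2 fold change of -3.76 with a standard error of 0.49 (edgeR adjusted p = 0.00316). *Gadd45a* was at 294, 313 and 373 CPM in WT and at 93.3, 95.4, 102 and 112 CPM in Jag2sm libraries (-1.70, standard error 0.19, edgeR adjusted p = 0.00224). Every Jag2sm library lay below every WT library in both genes, and Jag2sm replicate 1 lay between the other Jag2sm libraries for *Fgf21* and at 0.902 of their mean for *Gadd45a*. *Pmaip1* had a log2 fold change of -1.61 and *Cdkn1a*, the cell cycle inhibitor p21, of -1.09 (edgeR adjusted p = 0.0190 and 0.0369). *Fgf21* and *Gadd45a* passed in every alternative that tested them. Each of the other 5 called genes lost its call when some single library was left out, with adjusted p as high as 0.0842 for *Cebpb*, 0.125 for *Niban1*, 0.114 for *Pmaip1*, 0.134 for *Cdkn1a* and 0.237 for *Srxn1*. Of the fits with a library left out, *Cdkn1a* passed only without WT replicate 1 and *Srxn1* only without Jag2sm replicate 3. *Cdkn1a* also failed with library size alone and with at least 10 counts in every library (edgeR adjusted p = 0.063 and 0.058). *Srxn1* failed with the size factors of DESeq2 (edgeR adjusted p = 0.052). With the replicate number as a block, *Cebpb*, *Pmaip1*, *Cdkn1a* and *Srxn1* also lost their calls (adjusted p = 0.0567, 0.0606, 0.0676 and 0.106). The summed markers of differentiating muscle moved with the genotype in the same direction, as given above, and their part in these 4 genes was not tested. Exons of *Fut1* overlap *Fgf21*, *Peds1* overlaps *Cebpb* and *E230016M11Rik* overlaps *Gadd45a*, all on the opposite strand, and the strand setting of the counting is not given in the sources used here.

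**Figure D4:**
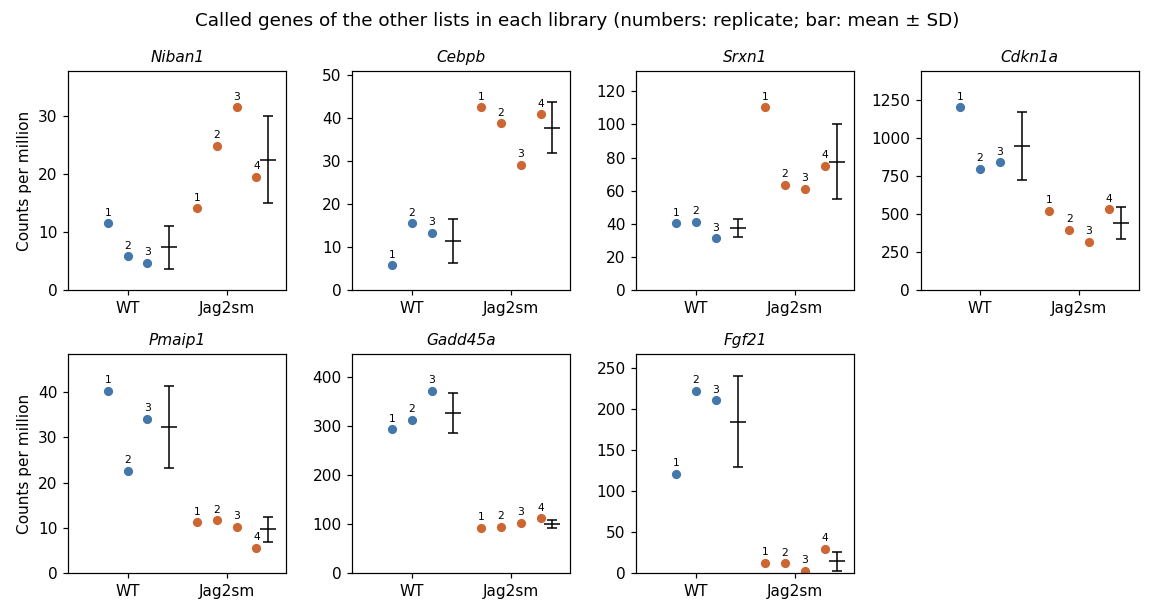
Level in CPM (vertical axes, from 0) in each WT (blue) and Jag2sm (orange) library of the 7 called genes of the other lists, with replicate numbers beside the points and the mean ± SD as a bar to the right of each group (n = 3 and n = 4). *Niban1*, *Cebpb* and *Srxn1* are higher and *Cdkn1a*, *Pmaip1*, *Gadd45a* and *Fgf21* lower in every Jag2sm library than in any WT library.

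In the remaining 6 lists 0 genes were called by edgeR, while DESeq2 called *Eif2ak2*, *Slc6a6* and *Atf6* (adjusted p = 0.00425, 0.0365 and 0.0368). The gene with the smallest p of each list is given. Upstream of ATF4, 14 genes were tested: eIF2α kinases, phosphatases, eIF2 subunits, *Eif2b1* to *Eif2b5*, *Dele1* and *Oma1*. *Eif2ak1*, which encodes HRI, and *Eif2ak3*, which encodes PERK, had too few counts to be tested. Of the 14, 1 had an unadjusted p under 0.05, *Eif2ak2*, which encodes PKR. It was at 5.76, 13.6 and 8.54 CPM in WT and at 45.3, 124, 16.8 and 59.5 CPM in Jag2sm libraries, a log2 fold change of 2.50 with a standard error of 0.67 (edgeR adjusted p = 0.0527). It was called by edgeR with the replicate number as a block (adjusted p = 0.0189), with library size alone (0.0382), with no filter on low counts (2.99e-10) and without Jag2sm replicate 3 (0.00537). *Eif2ak2* is itself induced by interferon, and the summed CPM of 10 interferon-stimulated genes was 11.5 to 18.1 in WT and 476, 2499, 42.4 and 1083 in Jag2sm replicates 1 to 4. The part of these interferon genes in the values of *Eif2ak2* or of the stress genes was not tested. *Eif2ak4*, which encodes GCN2, was at 16.8 to 20.9 CPM in WT and 18.4 to 20.7 CPM in Jag2sm libraries.

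Among the transporters, *Slc6a6*, the taurine importer, had the smallest p (log2 fold change -0.83, edgeR adjusted p = 0.0678), and 2 of 11 had an unadjusted p under 0.05. In the serine, glycine and one-carbon list it was *Mthfd1l*, a mitochondrial folate enzyme (0.52, edgeR adjusted p = 0.244), and 11 of 13 log2 fold changes were above 0, with a median of 0.33. Among further synthesis enzymes it was *Oat*, ornithine aminotransferase (0.70, edgeR adjusted p = 0.126), with 4 of 12 at an unadjusted p under 0.05. No tRNA synthetase reached an unadjusted p under 0.05, and *Rars1* came nearest (0.54, edgeR adjusted p = 0.282). Of 21 targets and sensors of the endoplasmic reticulum, *Atf6* had the smallest p (-1.13, edgeR adjusted p = 0.0681). The counts of genes at an unadjusted p under 0.05 were 2 of 13 for the one-carbon list and 2 of 21 for the endoplasmic reticulum list, and 19.7% of all tested genes reached it.

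Jag2sm replicates 2 and 4 both lay above replicates 1 and 3 in *Slc7a11* and in 0 of the other 8 tested stress genes, a pattern noticed in the values that 20.0% of all tested genes share. It held in 6 of 12 tested NRF2 and glutathione genes apart from *Slc7a11*. Among these, picked after their values were seen, *Gclm*, a subunit of the enzyme that starts glutathione synthesis, was at 113, 160, 98.5 and 182 CPM in replicates 1 to 4, and *Nqo1* at 25.4, 36.6, 16.8 and 75.0 CPM. *Hmox1*, heme oxygenase, is counted among the 6 but was nearly even, at 96.2, 97.4, 93.1 and 96.2 CPM. *Srxn1*, the called gene of that list, was highest in replicate 1 and is not among the 6. *Gclm* was at 51.9, 64.0 and 82.5 CPM in WT, below every Jag2sm library, with a log2 fold change of 1.01 (edgeR adjusted p = 0.0587).

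The genes most like *Atf4* over the 7 libraries were found by the mean absolute difference of log2 CPM, each gene centred on its own mean, among the 3641 tested genes outside the list whose SD was at least that of *Atf4*. They were *Gm54867*, at a mean difference of 0.14, *Asap1*, at 0.14, and *Sqor*, at 0.15. *Gm54867* and *Sqor* were at 5.76 CPM in WT replicate 1, where 3 counts make 17.3 CPM. In Jag2sm replicate 1, where 3 counts make 4.24 CPM, both were at 5.66 CPM. Their likeness to *Atf4* in these libraries rests on few counts. *Asap1*, a GTPase-activating protein, was at 46.1, 78.9 and 60.7 CPM in WT and at 46.7, 133, 114 and 103 CPM in Jag2sm libraries.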

How the data were processed

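The authors prepared 1 Nanopore direct cDNA library from each of 3 WT and 4 Jag2sm MuSC samples, aligned the reads to GRCm39 with minimap2 2.17 (version from the submitters' processing notes), assigned them to genes with htseq and deposited each library's raw counts per gene. The deposited table of the authors' own DESeq2 comparison holds fold changes and p-values and was not used. The members and gene lists were chosen with earlier results of these data known. Identifiers were named by GENCODE M39 (56017 of 56748 found). Overlapping exons were found with bedtools 2.31.1.

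Counts were analysed with edgeR 4.0.16 in R 4.3.3: filterByExpr (minimum count 10, minimum total 15) kept 9489 genes, TMM factors scaled the libraries, and glmQLFit with glmQLFTest compared the genotypes without covariates. Calls needed a p under 0.05 after Benjamini-Hochberg adjustment over these genes. The fit, tested on simulated data, weighs libraries by their depth, so a fold change can differ from the ratio of mean CPM. Log2 CPM used a prior count of 2. Permutation tests of log2 CPM were exact over 35 splits. Intervals are exact binomial at 95% (SciPy 1.17.1) and cover counting error only.

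Named were the 10 members, the called genes of each other list (at most the 6 largest) or its smallest p, *Jag2*, and the 3 genes most like *Atf4*. Further genes are marked as picked later. Alternatives were DESeq2 1.42.0, its size factors, library size alone, no filter, at least 10 counts in every library, the replicate block, and leaving out each library.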

Additional observations from a re-analysis of the deposited data

Results flagged for a closer look

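The share of reads that did not align lies outside the gene counts that the comparisons use, and it was far above the WT libraries in 3 of the Jag2sm libraries. It was 50.8% in replicate 1, 46.7% in replicate 2 and 45.9% in replicate 4, against 2.44% to 3.24% in WT libraries and 3.07% in Jag2sm replicate 3. Of these, replicate 1 was the lowest Jag2sm library in 9 of 9 tested stress genes, and replicates 2 and 4 lay above every WT library in *Atf4*. Jag2sm replicate 3 also lay above every WT library in *Atf4*, at 759 CPM, and was the highest Jag2sm library in 7 of 9. The part of the unaligned reads in these values was not tested. Of 37 genes examined, the ATF4 stress genes included, 1 had a Jag2sm library farther from the rest than Dixon's 95% critical value for 4 samples allows. Chance would flag about 1 in 20 if the genes were independent. They share the same 4 libraries, so the count of flagged genes neither shows nor excludes a departure beyond chance. The flagged gene was the mural marker *Rgs5*, at 645 CPM in Jag2sm replicate 1. Its gap to the next library was 0.976 of the whole range.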

How the results depend on the processing

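Of the 10 members, 0 were called in all 7 libraries and under 11 of 13 alternatives. *Ddit3* was not tested in the main fit. The alternative with at least 10 counts in every library left *Trib3*, *Chac1*, *Sesn2* and *Slc7a11* untested, so its 0 does not cover them. With no filter on low counts 3 were called (4.95% of all genes), *Sesn2*, *Slc7a11* and *Trib3* (adjusted p = 0.0105, 0.00698 and 0.0455), and without Jag2sm replicate 3 there was 1 (6.68% of all genes), *Slc7a11* (log2 fold change 1.79, adjusted p = 0.0482), so leaving out a library gave 0 to 1. The sign of the log2 fold change reversed for *Chac1* without Jag2sm replicate 3, *Psat1* without Jag2sm replicate 1 and *Phgdh* without WT replicate 1 or Jag2sm replicate 3 (-0.0121). With a library left out, the values ran from -0.0499 to 0.47 for *Chac1*, -0.43 to 0.0315 for *Psat1* and -0.0255 to 0.39 for *Phgdh*. Over all genes, 594 calls became 1248 with no filter, 274 with at least 10 counts in every library, which leaves 2981 genes tested, and 251 to 616 when a library was left out (343 without WT replicate 2, 341 without WT replicate 3 and 251 without Jag2sm replicate 2). The 7 calls of the other lists became 13 with DESeq2, 14 with no filter, 2 with at least 10 counts in every library and 2 to 9 when a library was left out (3 without WT replicate 2, 2 without WT replicate 3 and 3 without Jag2sm replicate 2). Scaling by library size alone moved the median log2 fold change of all genes from 0.05 to 0.21 and the share of calls that were higher from 22.7% to 38.6%, and it was 37.5% with no filter, 15.7% with at least 10 counts in every library and 5.9% to 35.7% when a library was left out (5.9% without WT replicate 3, 9.6% without WT replicate 2, 12.0% without Jag2sm replicate 2 and 35.7% without Jag2sm replicate 3). Causes were not tested. Samples of 1 number deviated together at correlations of 0.07, 0.01 and 0.05, so the labels' numbers were not taken as pairs; with the replicate block, 0 members, 565 genes and 4 of the other lists were called, the last with *Eif2ak2* gained and *Cebpb*, *Pmaip1*, *Cdkn1a* and *Srxn1* lost, and 2 of 3 WT libraries correlated best with the Jag2sm library of their own number. The 2 normalizations added after the data were seen left Jag2sm replicate 1 lowest in 9 members. A depth of 187834 reads in WT replicate 1 limits *Slc7a11*, *Sesn2* and *Chac1*, which had 2, 3 and 4 counts there.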
